A study of Mus musculus with 16 samples.

Results

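The 10 cytokine and receptor genes described here, of the interleukin-6 (IL-6), interleukin-1 (IL-1), tumour necrosis factor (TNF) and colony stimulating factor families, were read in mouse suprarenal aorta. They were taken by symbol from a table of 29695 genes, and all 10 had a row: Il6, Il11, Lif and Osmr, then Il1b, Il1rn, Il33 and Il1rl1, then Tnf and Csf1. RNA came from the abdominal aorta above the renal arteries of male mice, with 4 libraries, called biological replicates in the labels, in each of 4 groups. The groups were Vamp8-/- knockout mice (KO) infused with angiotensin II (AngII), KO mice infused with saline, C57BL/6 wild-type mice (WT) infused with AngII, and WT mice infused with saline. AngII, a peptide hormone that constricts vessels and whose infusion is a common mouse model of aortic disease, was given at 1000 ng/kg/min for 5 days from an implanted osmotic minipump, and Vamp8 codes for a vesicle SNARE that takes part in membrane fusion and secretion. Vessels with overt pathology or bleeding in the wall were left out by the submitters, so the data describe aortae without it, and neither the age of the mice nor the structure of the deleted allele is stated there. The design asks how these genes respond to AngII and whether the response differs without Vamp8.

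IL-6, IL-11 and LIF are cytokines that signal through receptor complexes sharing the subunit gp130 and activate JAK kinases and STAT3. IL-1β and IL-33 act through receptors that pair with the IL-1 receptor accessory protein, and TNF acts through its own receptors, and these routes all lead to the transcription factor NF-kB. CSF-1 sustains macrophages. In AngII-infused mice these cytokines have been studied as signals between smooth muscle cells, adventitial fibroblasts and recruited monocytes.

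Library totals ran from 13284804 to 21643548 counts, so 3 reads, the least taken here as a level above 0, correspond to 0.148 to 0.230 CPM, the unit of level used throughout (counts scaled to a common total with edgeR's TMM factors). Smooth muscle, endothelial and fibroblast marker lists were read in full in every library. Vamp8 itself was at 14.1 to 26.7 CPM in KO AngII, 24.9 to 53.3 CPM in KO saline, 52.3 to 60.9 CPM in WT AngII and 45.9 to 57.2 CPM in WT saline. KO against WT gave -1.29 under AngII (SE 0.23, edgeR adjusted p = 0.00981) and -0.61 under saline (SE 0.23, adjusted p = 0.147). Its highest KO value, 53.3 CPM, came from the library labelled KO saline replicate 1, which with TMM scaling goes against its label by lying among the WT libraries. The library had 826 Vamp8 reads in 21643548 counts and a TMM factor of 0.716. WT saline replicate 1 had 677 reads in 13284804 counts and a factor of 1.11. By raw total the library labelled KO saline replicate 1 lay between the other KO libraries and the WT libraries. That library also had the highest sum of brown adipocyte markers, 8719 CPM. KO AngII replicate 4 stood apart by its sum of sympathetic neuron and chromaffin markers, 2619 CPM against 175.5 CPM or less in the other 15 libraries. KO saline replicate 3 had a skeletal muscle marker sum of 644.3 CPM, against 26.8 CPM or less in the other 15. Fits without both KO libraries that stood apart left out KO saline replicate 1 and KO AngII replicate 4, and kept KO saline replicate 3. The table gave no symbol to 2725 genes, and 2725 genes had 0 reads in all WT libraries, so a difference in counting between the genotypes cannot be told apart from genotype. Mitochondrial genes took 30.5% ± 2.49 of counts in KO saline and 13.4% ± 3.88 in WT saline (SD, n = 4). Under AngII they took 16.1% ± 6.12 in KO and 12.6% ± 3.06 in WT mice, so the share also differed between the KO groups. In these bulk samples fewer cells of a type and less RNA per cell cannot be told apart.

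No member passed an adjusted p of 0.05 in any of 6 comparisons by edgeR's quasi-likelihood test. The pattern in the libraries was uneven: Il6, Il1b and Il11 were concentrated in WT AngII replicates 3 and 4. Of the 10 members, 8 passed edgeR's expression filter, and Il6 and Il1b did not. For AngII against saline in WT mice, 0 of 8 were called, against a background of 0.444% of the 15984 genes tested. The other backgrounds were 0.0501% for AngII against saline in KO mice, 3.01% for KO against WT under saline, 2.03% for KO against WT under AngII, 0.0188% for the genotype by AngII interaction and 1.04% for AngII against saline averaged over genotypes. At such shares a count of 0 among 8 genes is near the background. At an unadjusted p under 0.05 the counts were 3 for AngII in WT mice (background 8.8%), 0 for AngII in KO mice (19.2%), 1 for KO against WT under saline (21.8%), 2 for KO against WT under AngII (17.9%), 2 for the interaction (11.2%) and 2 for the average (15.1%). In each comparison with a count above 0, the genes counted included Il11 or Tnf. Il11 entered the test through its WT AngII libraries, and Tnf had 0 WT saline libraries over the cut of the filter. Part of these counts was therefore built into the filter, and they are given as a description. DESeq2 called 1 member in 1 of the comparisons. limma voom with quality weights called 1 to 2 in 3 of them. These genes are named where they are described.

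The members differed widely in level. Per kilobase of exon, Csf1 averaged 13.2 CPM (range 8.92 to 19.6 over the 16 libraries) and Il33 averaged 12.4 CPM (7.06 to 22.3), and their ranges overlapped. Osmr followed at 3.46 CPM per kilobase (2.51 to 4.94), below every library of Csf1 and Il33. The other 7 genes averaged under 1 CPM per kilobase: Lif 0.569, Il1b 0.343, Il11 0.342, Il1rl1 0.286, Tnf 0.278, Il6 0.231 and Il1rn 0.155, and each overlapped its neighbours among these 7. Reads were few for several of them. Il6 had 140 reads and Il1b 167 reads over all 16 libraries, and Il6 was at 0 reads in 6 libraries and Il1b in 3.

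**Figure D1:**
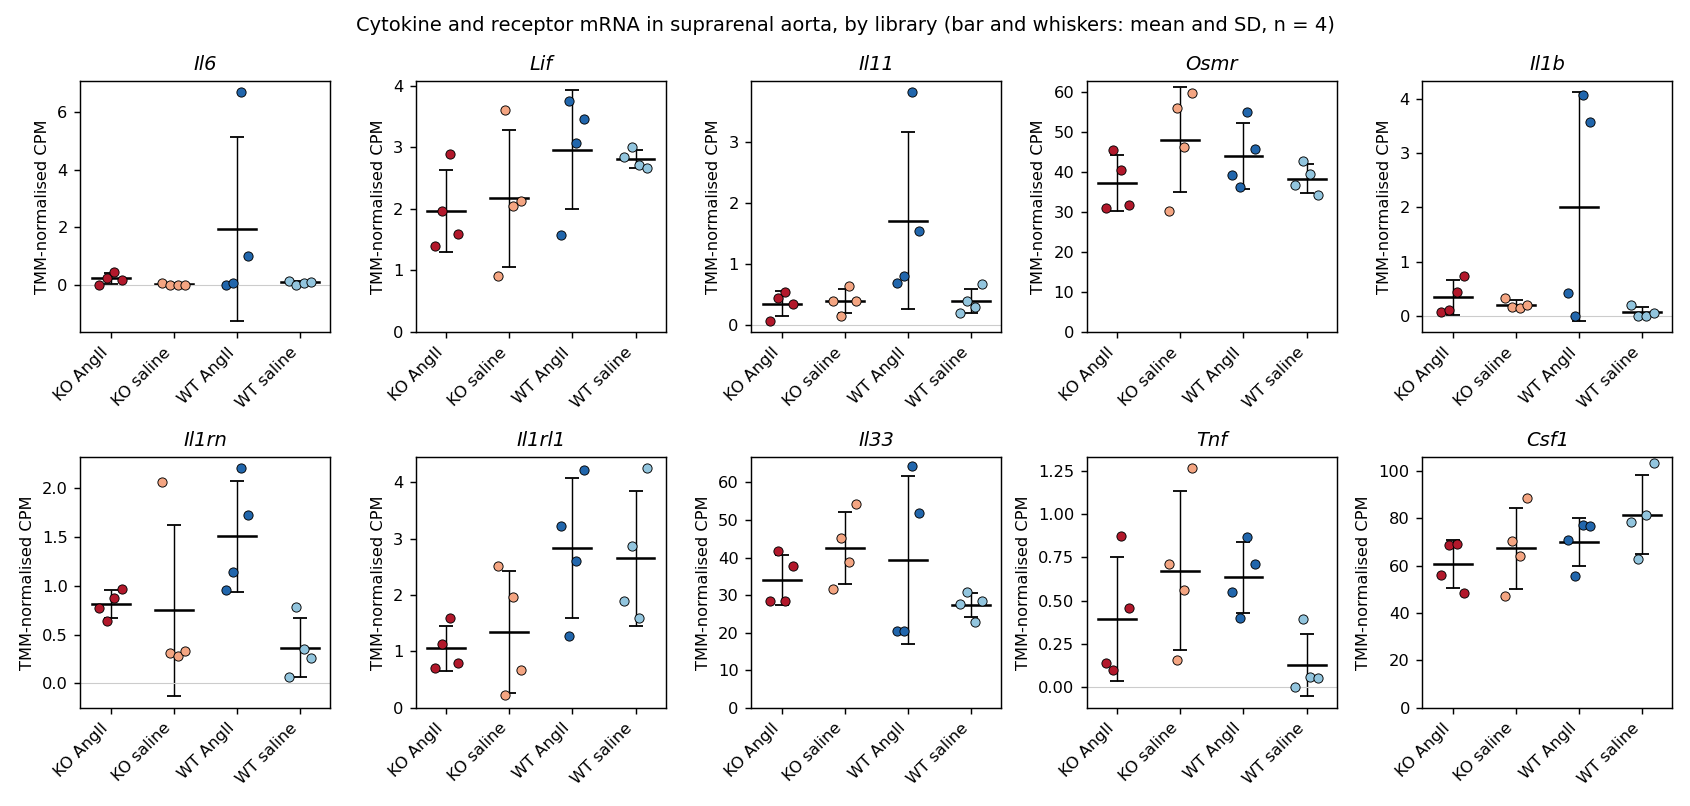
Level of each of the 10 genes in TMM-normalised CPM (vertical axes, each with its own scale) in KO AngII, KO saline, WT AngII and WT saline; points are libraries, the bar is the mean and the whiskers the SD (n = 4). The WT AngII points of Il6 reach 6.68 CPM in 1 library and those of Il1b and Il11 are led by 2 libraries, while Osmr, Il33 and Csf1 lie at 20.4 CPM or more in every library.

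The start regions of the 3 genes that shared their highest libraries are shown because motifs of factors that act below these cytokines can be looked for in them. Each window runs from 250 bases before the RefSeq start to 50 bases from it on, in GRCm38.p6, and is written 5′ to 3′ on the strand of the gene, with motif matches in capitals. The windows are at chr5:30012864-30013163 on the plus strand for Il6, chr7:4778092-4778391 on the minus strand for Il11 (the first of its windows) and chr2:129371090-129371389 on the minus strand for Il1b.
Il6: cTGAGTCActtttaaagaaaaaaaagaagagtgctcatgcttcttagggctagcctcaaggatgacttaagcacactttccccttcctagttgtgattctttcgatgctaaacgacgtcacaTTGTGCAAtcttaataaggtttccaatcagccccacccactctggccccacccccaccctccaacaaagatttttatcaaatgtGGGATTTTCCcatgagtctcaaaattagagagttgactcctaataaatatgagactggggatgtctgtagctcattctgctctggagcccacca
Il11: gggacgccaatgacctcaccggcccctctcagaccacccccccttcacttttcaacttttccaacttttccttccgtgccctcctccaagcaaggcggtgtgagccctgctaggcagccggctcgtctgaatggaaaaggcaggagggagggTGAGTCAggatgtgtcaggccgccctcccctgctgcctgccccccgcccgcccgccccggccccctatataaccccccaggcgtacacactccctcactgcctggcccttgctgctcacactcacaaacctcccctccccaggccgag
Il1b: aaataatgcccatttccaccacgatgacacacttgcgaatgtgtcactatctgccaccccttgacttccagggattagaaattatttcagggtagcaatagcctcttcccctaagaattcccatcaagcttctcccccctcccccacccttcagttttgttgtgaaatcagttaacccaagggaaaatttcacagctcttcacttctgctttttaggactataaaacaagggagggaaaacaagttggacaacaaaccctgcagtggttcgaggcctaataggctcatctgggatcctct
The capitals in Il6 are, in order, an AP-1 match at the far end of the window, a C/EBP match on the opposite strand at bases -128 to -121 from the start, and an NF-kB match at bases -44 to -35. Il11 holds an AP-1 match at bases -98 to -92, and the Il1b window holds no match. The motifs were searched on both strands as GGGNN followed by TTNCC for NF-kB, TGANTCA for AP-1, TTGCNNAA for C/EBP, TTCNNNGAA for STAT and TGACGTCA for the cyclic AMP response element, with no overlap between the matches shown. All 10 genes had a window, 15 in all, and 3 genes held an NF-kB match, 5 AP-1, 3 C/EBP and 0 STAT or cyclic AMP. The NF-kB motif was in 4 windows, of which 2 are overlapping windows of Il1rn that share the same match. Of 32544 RefSeq windows of the same length, 4.78% held the NF-kB motif, 7.79% AP-1, 10.8% C/EBP, 8.33% STAT and 1.8% the cyclic AMP response element. A match describes the letters only, and binding was not measured.

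Il6 (ENSMUSG00000025746, chromosome 5) encodes the cytokine that gives the family its name. Its reads in replicates 1 to 4 were 0, 5, 8 and 3 in KO AngII, 1, 0, 0 and 0 in KO saline, 0, 1, 100 and 17 in WT AngII and 2, 0, 1 and 2 in WT saline. WT AngII replicate 3 alone held 71.4% of all Il6 reads (exact binomial 95% interval 63.2 to 78.7%, counting error only) and 5.61% of all counts. At 6.68 CPM it was 15.3 times the third highest library, KO AngII replicate 3 at 0.437 CPM, and WT AngII replicate 4 lay between them at 1.01 CPM. In WT AngII the other 2 libraries had 1 read or none, so the groups overlapped. The mean was 1.94 ± 3.20 CPM in WT AngII and 0.0742 ± 0.0586 CPM in WT saline (SD, n = 4, exact two-sided permutation p = 0.343), and the WT AngII mean was 0.359 CPM without replicate 3. In KO mice it was 0.214 ± 0.181 CPM under AngII, where 2 of 4 libraries held more than 3 reads, and 0.0161 ± 0.0323 CPM under saline, where 1 read was found in all (exact permutation p = 0.143). KO against WT gave p = 0.4 under AngII and p = 0.257 under saline by the same exact permutation test, whose smallest possible p with 4 libraries against 4 is 0.0286. Over the 8 such tests of Il6 and Il1b none passed with all libraries. Without KO AngII replicate 1, AngII against saline in KO mice reached that size for Il6 (exact permutation p = 0.0286, not adjusted over the tests).

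Il11 (ENSMUSG00000004371, chromosome 7) encodes a cytokine that acts on fibroblasts and smooth muscle cells. It had 1, 9, 10 and 6 reads in KO AngII, 6, 2, 9 and 6 in KO saline, 10, 12, 57 and 26 in WT AngII and 3, 6, 5 and 13 in WT saline. In CPM these were 0.0700, 0.443, 0.547 and 0.342 in KO AngII, 0.387, 0.154, 0.632 and 0.400 in KO saline, 0.687, 0.802, 3.81 and 1.55 in WT AngII and 0.203, 0.391, 0.295 and 0.666 in WT saline. Every WT AngII library lay above every library of the other groups with TMM scaling, by a narrow margin over WT saline (0.687 against 0.666 CPM), and the other 3 groups overlapped. By raw total the WT groups overlapped, at 0.718 CPM in WT AngII replicate 1 and 0.781 CPM in WT saline replicate 4. Il11 entered the test through WT AngII, where all 4 libraries passed the cut of the filter (0.645 CPM of raw total), against 0 of 8 KO libraries and 1 of 4 WT saline libraries, so a difference between WT AngII and the other groups was built into its being tested, and its fold changes are given as a description. WT AngII replicates 3 and 4 were again the highest, although replicates 1 and 2 were also just above the rest. In KO against WT under AngII the log2 fold change was -2.24 (SE 0.63, edgeR adjusted p = 0.0701), 4.71-fold lower, with groups that did not overlap, as for 4.8% of all genes tested in that direction. Without a filter the value was -2.26 (edgeR adjusted p = 0.101), and by DESeq2 it was past the threshold (-2.27, adjusted p = 0.0174). Without WT AngII replicate 3 it was -1.49 (edgeR adjusted p = 0.280). AngII against saline gave 2.10 in WT mice (SE 0.63, edgeR adjusted p = 0.240) and -0.14 in KO mice (SE 0.67, adjusted p = 0.919), and the interaction between them did not pass (-2.24, SE 0.92, adjusted p = 0.422). The WT value was 1.35 without WT AngII replicate 3.

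Lif (ENSMUSG00000034394, chromosome 11) encodes leukaemia inhibitory factor. It averaged 1.97 ± 0.665 CPM in KO AngII, 2.17 ± 1.11 CPM in KO saline, 2.96 ± 0.961 CPM in WT AngII and 2.81 ± 0.152 CPM in WT saline (SD, n = 4). All groups overlapped, and the narrowest was WT saline, at 2.66 to 3.00 CPM. The lowest library of all, 0.904 CPM, was the library labelled KO saline replicate 1. KO against WT had the same sign under AngII (log2 fold change -0.59, SE 0.37) and under saline (-0.37, SE 0.37), and AngII against saline was near 0 in both genotypes (edgeR adjusted p from 0.464 to 1.00 over these 4).

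Osmr (ENSMUSG00000022146, chromosome 15) encodes the receptor subunit that pairs with gp130 to bind oncostatin M. Its CPM was 31.1, 45.6, 40.5 and 31.7 in KO AngII, 30.4, 55.9, 46.2 and 59.8 in KO saline, 39.3, 36.4, 55.0 and 45.7 in WT AngII and 36.8, 42.7, 39.6 and 34.2 in WT saline. The groups overlapped, and the lowest KO saline value was again that of the library labelled replicate 1. KO against WT under saline gave 0.33 (SE 0.20, edgeR adjusted p = 0.336), and 0.49 (adjusted p = 0.115) without that library and KO AngII replicate 4. limma voom with quality weights called it, at 0.46 (adjusted p = 0.0387). AngII against saline was -0.37 in KO mice (SE 0.20) and 0.20 in WT mice (SE 0.20), with an interaction of -0.57 (SE 0.28, adjusted p = 0.454). Its ligand Osm, made by macrophages and neutrophils, stayed below the filter with 10 reads in KO AngII, 16 in KO saline, 46 in WT AngII and 9 in WT saline, and its highest library was WT AngII replicate 4 at 1.61 CPM.

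Il1b (ENSMUSG00000027398, chromosome 2) encodes IL-1β, made mainly by activated monocytes and macrophages. The Il1bos gene lies on the opposite strand of it, and since the strand setting of the counting is not given, reads of the pair cannot be told apart. Its reads were 1, 2, 8 and 13 in KO AngII, 5, 2, 2 and 3 in KO saline, 6, 0, 61 and 60 in WT AngII and 3, 0, 0 and 1 in WT saline. WT AngII replicates 3 and 4, at 4.08 and 3.57 CPM, held 72.5% of its reads and 11.98% of all counts. The next library was KO AngII replicate 4 at 0.742 CPM, the library with the high neuron and chromaffin sum, and WT AngII replicate 2 had no read, so WT AngII overlapped every group. The mean was 2.01 ± 2.11 CPM in WT AngII and 0.0636 ± 0.0962 CPM in WT saline (exact two-sided permutation p = 0.143). It was 0.337 ± 0.317 CPM in KO AngII and 0.204 ± 0.0831 CPM in KO saline (SD, n = 4, exact permutation p = 0.543). KO against WT gave exact permutation p = 0.343 under AngII and p = 0.114 under saline, the last at 0.0286 without WT saline replicate 1. With 3 libraries over the cut, Il1b passed the filter in 13 of the 16 fits without 1 library, because the filter then needs 3 libraries in place of 4, and those 3 were WT AngII replicates 3 and 4 and KO AngII replicate 4. WT saline had 0 libraries over the cut, so a difference between WT AngII and WT saline was built into its being tested. For AngII against saline in WT mice Il1b was called in 1 of these 13 fits, without WT AngII replicate 2 (log2 fold change 5.30, edgeR adjusted p = 0.0360, exact permutation p = 0.0286), and the adjusted p reached 0.389 in the others. The library left out in that fit was the one of its group with no Il1b read.

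Il1rn (ENSMUSG00000026981, chromosome 2) encodes the IL-1 receptor antagonist, which occupies the receptor without signalling. Its CPM was 0.770, 0.639, 0.875 and 0.970 in KO AngII, 2.07, 0.307, 0.281 and 0.333 in KO saline, 0.961, 1.14, 2.21 and 1.72 in WT AngII and 0.0678, 0.783, 0.354 and 0.256 in WT saline. In WT mice every AngII library lay above every saline library. In KO mice the 4 AngII libraries also lay above KO saline replicates 2 to 4, and the library labelled KO saline replicate 1, with 32 of the 45 reads of its group, lay above them all. AngII against saline gave 2.03 in WT mice (SE 0.68, edgeR adjusted p = 0.322) and 0.11 in KO mice (SE 0.65, adjusted p = 0.941). Without that library and KO AngII replicate 4 the values were 2.03 (SE 0.51, adjusted p = 0.0987) and 1.29 (SE 0.61, adjusted p = 0.384), and the interaction was -0.74 in place of -1.92 (adjusted p = 0.806 and 0.454). KO against WT under saline turned its direction with them, at -0.24 without both libraries and 1.04 with all. limma voom with quality weights called Il1rn in WT mice (2.58, adjusted p = 0.0236) and averaged over genotypes (1.81, adjusted p = 0.0141), where edgeR gave 1.07 (SE 0.47, adjusted p = 0.298).

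Il33 (ENSMUSG00000024810, chromosome 19) encodes a nuclear alarmin of stromal and endothelial cells. Its CPM was 28.5, 41.7, 28.5 and 37.7 in KO AngII, 31.7, 45.2, 38.8 and 54.2 in KO saline, 20.5, 20.4, 64.5 and 51.9 in WT AngII and 27.7, 30.7, 22.9 and 28.3 in WT saline. WT AngII held a low pair, replicates 1 and 2, and a high pair, replicates 3 and 4, with every WT saline library between them. With TMM scaling KO saline lay above WT saline in every library, at 42.5 ± 9.56 CPM and 27.4 ± 3.26 CPM (SD, n = 4, log2 fold change 0.63, SE 0.32, edgeR adjusted p = 0.257), and groups were apart in that direction for 5.17% of all genes tested. By raw total they overlapped, since the library labelled KO saline replicate 1 was then at 22.7 CPM, below all 4 WT saline libraries (24.3 to 33.2 CPM). AngII against saline was -0.32 in KO mice (SE 0.32) and 0.52 in WT mice (SE 0.32), with an interaction of -0.83 (SE 0.45, adjusted p = 0.478).

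Il1rl1 (ENSMUSG00000026069, chromosome 1) encodes ST2, the receptor of IL-33, in a membrane and a soluble decoy form that gene counts do not separate. Its CPM was 0.700, 1.13, 1.59 and 0.799 in KO AngII, 2.52, 0.230, 1.97 and 0.666 in KO saline, 3.23, 1.27, 2.61 and 4.22 in WT AngII and 1.90, 2.87, 1.59 and 4.25 in WT saline. KO libraries were mostly lower than WT libraries under both infusions, with overlap. KO against WT gave -1.41 under AngII (SE 0.58, edgeR adjusted p = 0.203) and -0.97 under saline (SE 0.57, adjusted p = 0.325), and -1.30 and -1.46 without both KO libraries that stood apart (adjusted p = 0.3 and 0.210). AngII against saline was -0.35 in KO mice (SE 0.58) and 0.09 in WT mice (SE 0.56), and the KO value turned to 0.26 without both of those libraries. Mast cells carry ST2, and the sum of mast cell markers was 17.9 to 22.2 CPM in KO AngII, 11.0 to 23.7 CPM in KO saline, 12.03 to 40.5 CPM in WT AngII and 29.1 to 35.7 CPM in WT saline. Within WT AngII the lowest mast cell sums were in replicates 3 and 4, at 12.03 and 15.3 CPM, where Il1rl1 was at 2.61 and 4.22 CPM. The highest, 40.5 CPM, was in replicate 1, where Il1rl1 was at 3.23 CPM. The part of mast cells in the difference between KO and WT was not tested.

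Tnf (ENSMUSG00000024401, chromosome 17) encodes TNF-α. It had 2, 2, 16 and 8 reads in KO AngII, 11, 2, 8 and 19 in KO saline, 8, 6, 13 and 12 in WT AngII and 0, 6, 1 and 1 in WT saline. In CPM, WT AngII ran from 0.401 to 0.869 and WT saline from 0 to 0.391, so the WT groups did not overlap. The margin was narrow, since replicate 2 of each WT group held 6 reads. Groups were apart in that direction for 3.67% of all genes tested. The KO groups overlapped each other. AngII against saline gave 2.30 in WT mice (SE 0.87, edgeR adjusted p = 0.406) and -0.77 in KO mice (SE 0.77, adjusted p = 0.583), and the interaction was -3.07 (SE 1.16, adjusted p = 0.419). KO against WT under saline was 2.40 (SE 0.87, adjusted p = 0.140), with means of 0.673 ± 0.460 CPM in KO saline and 0.125 ± 0.179 CPM in WT saline (SD, n = 4). It was called by limma voom with quality weights (2.95, adjusted p = 0.0301) and by edgeR without WT saline replicate 2, which held 6 of the 8 WT saline reads (3.89, adjusted p = 0.0273). These values rest on 8 reads in WT saline. Tnf passed the filter with 4 libraries over the cut, 2 in WT AngII, 1 in KO AngII and 1 in KO saline. WT saline had 0 over it, so a difference from WT saline was partly built into its being tested. Its fold changes are therefore given as a description. Without a filter KO against WT under saline was 2.33 (edgeR adjusted p = 0.240).

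Csf1 (ENSMUSG00000014599, chromosome 3) encodes the growth factor of macrophages. It averaged 60.6 ± 10.1 CPM in KO AngII, 67.4 ± 17.1 CPM in KO saline, 70.1 ± 10.2 CPM in WT AngII and 81.6 ± 16.6 CPM in WT saline (SD, n = 4). All 4 groups overlapped. Each of the 4 pairwise log2 fold changes was negative, from -0.27 to -0.15, with SE 0.20 each (edgeR adjusted p from 0.409 to 0.877). Its interaction was 0.06 (SE 0.28).

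**Figure D2:**
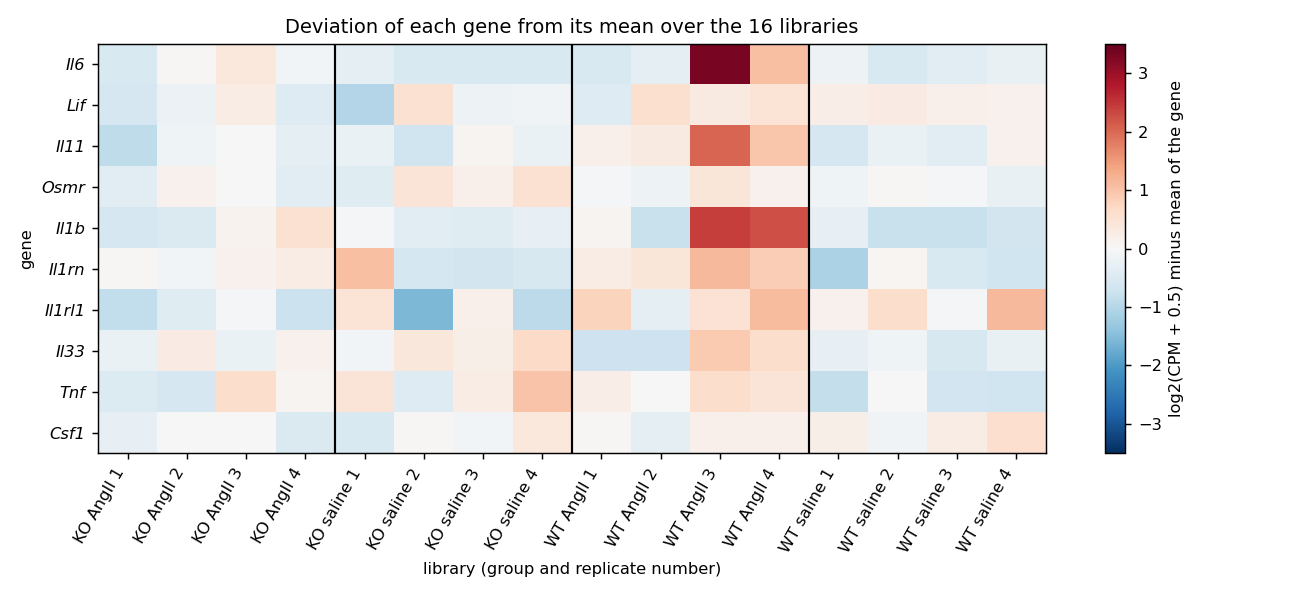
Each gene (rows) in each of the 16 libraries (columns, by group and replicate), as log2(CPM + 0.5) minus the mean of the gene over all libraries; red is above the mean and blue below, and black lines part the groups. The darkest red cells are Il6 in WT AngII replicate 3 (6.68 CPM) and Il1b in WT AngII replicates 3 and 4 (4.08 and 3.57 CPM).

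Across the members, 5 were highest in WT AngII replicate 3, namely Il6, Il11, Il1b, Il1rn and Il33. Of the genes tested, which do not include Il6 and Il1b, 8.15% had their highest level in that library. The 3 genes Il6, Il11 and Il1b had WT AngII replicates 3 and 4 as their highest 2, as did 6.43% of the genes tested. No background was computed for genes below the filter, where Il6 and Il1b lie. Il11 was among the genes tested only through its WT AngII libraries, so its high place there was partly built in. Those libraries also had the largest sums of 10 macrophage markers, 602.6 and 680.1 CPM, against 266.8 to 568.3 CPM in the other 14, with none of the markers at 0 in any library. By group, the macrophage sum was 266.8 to 368.7 CPM in KO AngII, 278 to 367 CPM in KO saline, 327.1 to 680.1 CPM in WT AngII and 323.3 to 568.3 CPM in WT saline. The 5 monocyte markers left when Fn1 and Vcan, which stromal cells also make, are set aside summed to 53.7 and 66.9 CPM there (the whole list of 7 to 5715 and 5033 CPM, against 666.2 to 3509 CPM elsewhere) and to 6.4 to 38.1 CPM elsewhere, and none was at 0 in any library. The sum of 7 neutrophil markers was 6.9 CPM or less in every library, with up to 3 of the 7 at 0. WT saline replicate 4, with a macrophage sum of 568.3 CPM, had 2 Il6 reads and 1 Il1b read. Single leukocyte genes differed. Adgre1 was highest in WT AngII replicates 3 and 4 (24.5 and 43.7 CPM). Ptprc was highest in KO AngII replicate 3 (42.8 CPM, against 21.3 and 24.0 CPM in those 2). Ly6c2 was highest in WT AngII replicate 2 (1.60 CPM, against 1.27 and 1.19 CPM). The part of macrophages and monocytes in the cytokine levels was not tested.

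**Figure D3:**
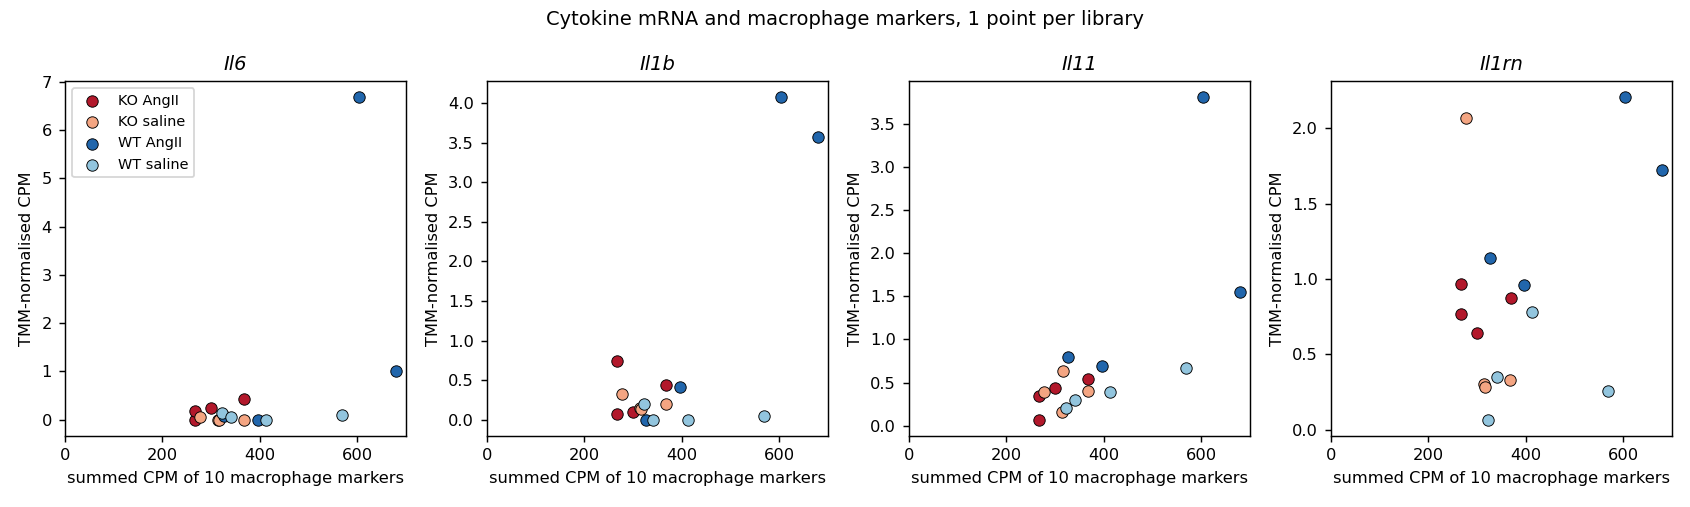
Il6, Il1b, Il11 and Il1rn in TMM-normalised CPM (vertical axes) against the summed CPM of 10 macrophage markers (horizontal axes); each point is 1 of 16 libraries, coloured by group. The 2 points at 602.6 and 680.1 CPM on the horizontal axis are WT AngII replicates 3 and 4, and Il1rn also has a high point at 278 CPM, the library labelled KO saline replicate 1.

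The comparisons can be set side by side over the 8 members tested, as a description. Il11 was among them only through its WT AngII libraries, and Tnf had 0 WT saline libraries over the cut of the filter. AngII against saline was positive for 1 and negative for 7 in KO mice (median log2 fold change -0.23, against 0.02 over all genes) and positive for 7 and negative for 1 in WT mice (0.36, against -0.01). In WT mice 3 members, Il11, Il1rn and Tnf, had every AngII library above every saline library, as did 3.67% of all genes tested. For Il11 this held with TMM scaling and not by raw total, and for Tnf the nearest libraries held 6 reads each. KO against WT under AngII was negative for all 8 members tested (median -0.63, against 0.04 over all genes), although Il33 turned to 0.28 by limma voom and to 0.14 without WT AngII replicate 3, and KO against WT under saline was positive for 5 and negative for 3 (0.17, against 0.05). The interaction was negative for 7 and positive for 1 (median -0.70, against 0.01). These comparisons share libraries, so their directions are not independent of each other, and none of the 8 passed for the interaction (edgeR adjusted p from 0.419 to 0.938). Averaged over genotypes, AngII gave 4 positive and 4 negative values with a median of 0.04.

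**Figure D4:**
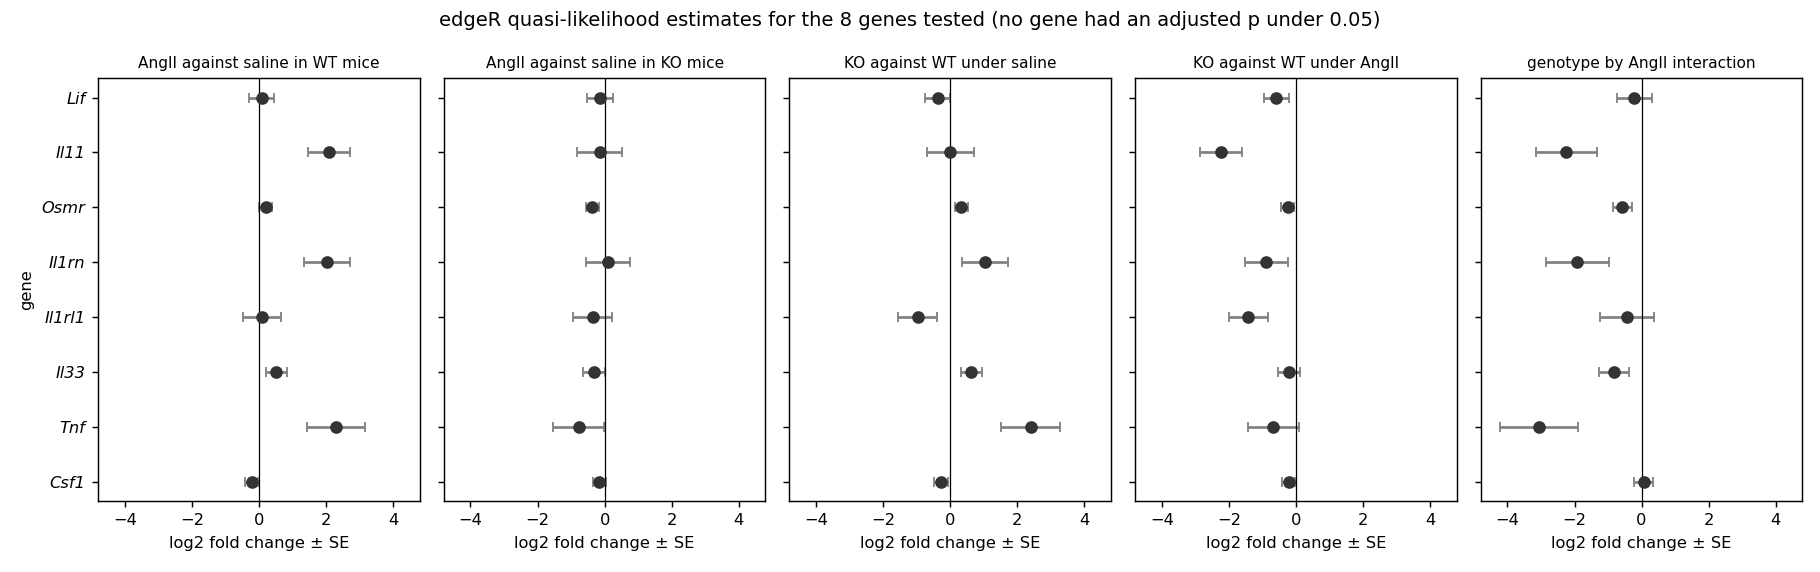
Log2 fold change with its SE (horizontal axes) for the 8 genes tested (rows) in 4 pairwise comparisons and the interaction, by edgeR. Il11, Il1rn and Tnf lie at 2.03 to 2.30 for AngII against saline in WT mice and at -0.77 to 0.11 in KO mice, with SE of 0.63 to 0.87 in WT mice.

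Genes around the members were read from lists of the same pathways, none of which holds a member. Of 9 listed IL-6 family receptors and other ligands 8 were tested, and none was called in any comparison. Il6ra, the IL-6 receptor, gave 0.45 for AngII averaged over genotypes (SE 0.20, edgeR adjusted p = 0.308). Of 16 genes of JAK-STAT3 signalling and its feedback none was called either. Saa3, an acute phase protein induced by these cytokines, gave 3.85 averaged over genotypes (SE 0.89, edgeR adjusted p = 0.0542), with 17.2 CPM in WT AngII replicate 3 and 2.26 CPM or less elsewhere, and Myc, a transcription factor, gave 0.87 (SE 0.24, adjusted p = 0.109). The median of that list was 0.15 for AngII in KO mice and 0.08 in WT mice, -0.30 for KO against WT under AngII and -0.45 for the interaction.

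Of 20 listed IL-1 family ligands, receptors and processing genes 16 were tested, and 3 were called. Under saline, KO against WT, Il18bp, the soluble inhibitor of IL-18, rose (1.21, SE 0.23, edgeR adjusted p = 0.0147), and so did Casp1, the protease that matures IL-1β and IL-18 (1.03, SE 0.21, adjusted p = 0.0194). Casp1 was at 9.88 to 11.4 CPM in KO saline and 4.19 to 6.46 CPM in WT saline. Il18bp was at 5.45 to 7.32 CPM in KO saline and 1.89 to 3.98 CPM in WT saline. The groups did not overlap for either gene, as for 5.17% of all genes tested in that direction. Over all genes tested, 3.01% were called for KO against WT under saline and 2.03% under AngII. The call of Il18bp was kept in 21 of 24 other settings and lost without WT saline replicate 1 or 4 (1.13 and 1.05, adjusted p = 0.0704 and 0.0543) and in a fit of only these groups. That of Casp1 was kept in 19, and lost without KO saline replicate 2 or 3 or without WT saline replicate 1, 3 or 4 (adjusted p from 0.0504 to 0.0839). Irak4, a kinase of IL-1 receptor signalling, fell in KO against WT under AngII by 0.50 on the log2 scale (SE 0.12, adjusted p = 0.0498). Irak4 was at 9.29 to 10.8 CPM in KO AngII and 13.3 to 15.5 CPM in WT AngII, and its call was kept in only 6 of 24 settings, with adjusted p up to 0.150 in the others. The part of the higher mitochondrial share of KO saline in these differences was not tested. The median of the list was -0.15 for KO against WT under AngII and 0.20 under saline.

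Of 21 listed TNF family ligands and receptors 17 were tested, and 1 was called. Over all genes tested, 2.03% were called for KO against WT under AngII, 0.444% for AngII in WT mice and 1.04% averaged over genotypes. Tnfrsf11b, the secreted decoy receptor osteoprotegerin, was at 23.5, 23.3, 32.4 and 17.2 CPM in KO AngII, 11.8, 25.7, 19.5 and 22.8 CPM in KO saline, 48.8, 28.5, 131 and 111 CPM in WT AngII and 16.6, 13.4, 14.6 and 19.2 CPM in WT saline. WT AngII replicates 3 and 4 were the highest here too. KO against WT under AngII was lower (-1.73, SE 0.39, edgeR adjusted p = 0.0375), a call kept in 14 of 24 settings and lost without both KO libraries that stood apart (-1.60, adjusted p = 0.0692), without WT AngII replicate 3 (-1.38, adjusted p = 0.148) or replicate 4 (-1.53, adjusted p = 0.133), and without any of KO AngII replicates 2 and 4 and KO saline replicates 3 and 4 (adjusted p from 0.0513 to 0.0770), besides voom, the replicate block and a fit of only these groups. The rise under AngII in WT mice (2.32, SE 0.40, adjusted p = 0.0207) was kept in 17 of 24 settings, among them 10 of the 16 fits without 1 library. It was lost without WT AngII replicate 3 (1.97, adjusted p = 0.0855), without replicate 4 (2.12, adjusted p = 0.0866) or without any 1 of the WT saline libraries (adjusted p from 0.0634 to 0.1004). It was also lost under another setting, which was not a fit without 1 library (adjusted p = 0.104). The average over genotypes was 1.30 (SE 0.27, adjusted p = 0.0364), kept in 9 of 23 settings.

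All 20 genes of the NF-kB list were tested and 1 was called, against 1.04% of all genes tested for AngII averaged over genotypes. Ptgs2, the inducible cyclooxygenase, rose under AngII averaged over genotypes (2.52, SE 0.50, edgeR adjusted p = 0.0244), with 2.52 to 14.6 CPM in KO AngII, 1.76 to 2.61 CPM in KO saline, 9.16 to 75.6 CPM in WT AngII and 2.61 to 7.32 CPM in WT saline. The call was kept in 14 of 23 settings, and lost in 8 of the 16 fits without 1 library, with adjusted p of 0.0517 to 0.0671: without KO AngII replicate 2, KO saline replicate 1, 3 or 4, WT AngII replicate 3 or 4, or WT saline replicate 1 or 3. Of 7 listed genes of the CSF1 axis and other colony stimulating factors 5 were tested and none was called. Csf1r, the receptor of CSF-1 and a macrophage marker, was at 36.4 ± 6.24 CPM in KO AngII, 37.0 ± 4.33 CPM in KO saline, 74.0 ± 34.6 CPM in WT AngII and 51.5 ± 16.4 CPM in WT saline, with 79.3 and 119.8 CPM in WT AngII replicates 3 and 4. Averaged over genotypes it gave 0.25 (SE 0.20, adjusted p = 0.566), and Csf2ra, a receptor of GM-CSF, gave 0.23 (SE 0.23, adjusted p = 0.646).

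Receptors of the ligands, chosen for their textbook pairing after values had been seen, were present at higher levels per kilobase of exon than most ligands. Il6st, which encodes gp130, had group means of 27.8 to 34.1 CPM per kilobase, and Il6ra 1.30 to 2.26. Il11ra1, the IL-11 receptor, had 39.2 to 63.0 CPM per kilobase, although mice carry near-identical copies of this gene whose reads may be shared. Lifr, the LIF receptor, had 4.69 to 7.57 CPM per kilobase, and Il1r1, the signalling IL-1 receptor, 5.68 to 9.71. Tnfrsf1a, the widespread TNF receptor, had 47.4 to 56.9 CPM per kilobase. Il1r2, the decoy IL-1 receptor, stayed below the filter with 16 reads in KO AngII, 10 in KO saline, 45 in WT AngII and 7 in WT saline, and its highest libraries were WT AngII replicates 3 and 4 at 1.54 and 1.19 CPM.

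For each tested member the genes whose levels over the 16 libraries were most alike were listed by Pearson correlation of log2 CPM, as a description over libraries that share groups and scaling. The nearest were Sbno2 to Il11 (Pearson 0.89, Spearman 0.86), Birc3 to Lif (0.85 and 0.71), Crybb3 to Osmr (0.85 and 0.84), Pdcd10 to Il1rn (0.93 and 0.93), Shisa3 to Il33 (0.86 and 0.81), Tbxas1 to Il1rl1 (0.83 and 0.85), Phf11b to Tnf (0.79 and 0.74) and Uimc1 to Csf1 (0.93 and 0.93).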

How the data were processed

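The authors deposited raw counts, 1 column a library, not normalized. HISAT2 2.0.5 and featureCounts 1.5.0-p3 are named in the submitters' processing notes, with build GRCm39 and, as a further tool, DESeq2 1.20.0. The annotation release, strand setting and treatment of reads with several matches are not stated in those notes or labels. Groups and replicate numbers came from the sample titles. edgeR 4.0.16 (R 4.3.3) kept 15984 genes by its default filter (minimum count 10), with at least 99.47% of counts kept per library, and removed 13711. Counts were scaled by TMM and fitted in 1 quasi-likelihood model with a mean per group (12 residual degrees of freedom, biological coefficient of variation 35.3%). Calls needed an adjusted p (Benjamini-Hochberg, all genes tested, two-sided) under 0.05, and SE is the absolute log2 fold change over the square root of F. Il6 and Il1b, below the filter, were compared by exact permutation of CPM. Exon lengths and overlaps came from GENCODE M21 (GRCm38), start windows from RefSeq. Named genes were all 10 members, Vamp8, up to 4 called genes per list and comparison (otherwise the 2 with the lowest p for the average AngII effect) and the nearest of 3 most alike genes. Of the genes so chosen, 1 is not reported here. Library values of other genes were chosen after they were seen. The members and lists were chosen with earlier results of these data known. Other settings were RLE scaling, no filter, a filter of 1 CPM in 4 libraries, DESeq2 1.42.0, limma voom (limma 3.58.1), a replicate block, only the groups compared, each library left out, and both KO libraries that stand apart left out. The code was tested on simulated data.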

Additional observations from a re-analysis of the deposited data

Results flagged for a closer look

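Of 37 groups of 4 libraries checked over the members, 3 had a library whose gap to the rest passed Dixon's criterion at 95%. For normally distributed values chance flags about 1 group in 20 by this rule. Groups of few reads, such as those of Il6 and Tnf below, need not follow that rate. Il6 was at 6.68 CPM (100 reads) in WT AngII replicate 3, far above the other 3 libraries of its group. Il1rn was at 2.07 CPM (32 reads) in the library labelled KO saline replicate 1, against 0.281 to 0.333 CPM in the other KO saline libraries. Tnf was at 0.391 CPM (6 reads) in WT saline replicate 2, against 1 read or none in the other WT saline libraries.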

How the results depend on the processing

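No member was called in any comparison by edgeR with all libraries, and 24 other settings moved that count in 4 comparisons. With limma voom with quality weights the members called were 1 for AngII against saline in WT mice (Il1rn), 2 for KO against WT under saline (Osmr and Tnf) and 1 for the average over genotypes (Il1rn). With DESeq2 the count was 1 for KO against WT under AngII (Il11). With 1 library left out, the counts ranged from 0 to 1 for AngII in WT mice (1 without WT AngII replicate 2, Il1b) and from 0 to 1 for KO against WT under saline (1 without WT saline replicate 2, Tnf), and were 0 otherwise. Over the cut of the filter, Il11 had 4 WT AngII libraries and 0 in KO AngII, and Tnf had 0 in WT saline. The differences called for Il11 and Tnf were thus partly built into their being tested. Il1b had 2 WT AngII libraries over the cut, 1 KO AngII library and 0 in WT saline. It entered the test in 13 of the 16 fits without 1 library and was called in 1. The cause of these changes was not tested. Of 48 fold changes of tested members, 32 kept their sign in every setting and 16 did not. The exact permutation p of Il6 and Il1b ranged from 0.0286 to 1.00 over the settings, and the 3 values of 0.0286 each came from leaving out 1 library.

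Correlations of deviations of same-numbered libraries ran from -0.42 to 0.44, with 8 of 24 over 0.1. Those of differently numbered libraries were not computed, so whether replicate numbers pair the libraries was not tested. With the replicate block, 0 members were called in any comparison, and over all genes the count was 42 for AngII in WT mice, 14 for AngII in KO mice, 394 and 166 for KO against WT under saline and AngII, 3 for the interaction and 120 for the average, against 71, 8, 481, 324, 3 and 166. DESeq2 called 280, 734, 1362, 1230, 104 and 666 genes in the same order, and limma voom 254, 561, 3197, 580, 173 and 549. Depth limits Il6, Il1b, Il11, Tnf and Il1rn, each at fewer than 20 reads in most libraries.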
